A study of Mus musculus with 8 samples.

Results

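The collagen genes of the mouse were examined in liver of NZO and B6 mice. All genes were taken whose name on the array follows the pattern Col, a type number, the letter a and a chain number, which gave 44 genes with 69 probes and 78 spots among 34836 genes, 55681 probes and 59305 spots. They were assigned to 9 classes by the structure that their proteins are known to build. The NZO group consisted of 4 male mice of the strain NZO/HiBomDife and the B6 group of 4 male C57BL/6 mice, all labelled as 6 weeks of age and fed a diet with 45% fat. NZO is an inbred strain that becomes obese and diabetic, whereas B6 mice on this diet served as the lean strain of the comparison. Total RNA of each liver was measured on its own 1-colour Agilent array, and no liver of either strain on another diet was part of these data, so that an effect of strain and an effect of the response of a strain to the diet cannot be told apart.

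Collagens are proteins of the extracellular matrix whose chains wind around each other to a triple helix. Fibrillar collagens form the fibres of connective tissue, network collagens form the sheet of basement membranes, and further classes sit on fibres, link them to cells or span the cell membrane. In liver, stellate cells and fibroblasts of the portal tract are known as the main source of fibrillar collagens, sinusoidal endothelial cells and stellate cells contribute collagen IV, and hepatocytes are known for collagen XVIII, the precursor of endostatin.

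The triple helix requires glycine, the smallest amino acid, at regular steps along the chain, and this repeat is visible in the coding sequence as a glycine codon (GGN) that recurs with a spacing of 9 bases. Of the 69 collagen probes, 2 carried such a codon at every step of 9 bases along their whole length of 60 bases, with 6 codons each. The same pattern occurred in 7 of all 55681 probes. The sequences of both collagen probes are shown because they make the repeat visible and because the Col15a1 probe carries a result reported further on. Capitals mark the glycine codons, and the positions are those of the array design on the mm9 build, chr4:47283786-47283845 for Col15a1 and chr3:130270497-130270556 for Col25a1.
Col15a1: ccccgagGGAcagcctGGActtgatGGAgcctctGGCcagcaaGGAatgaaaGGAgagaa
Col25a1: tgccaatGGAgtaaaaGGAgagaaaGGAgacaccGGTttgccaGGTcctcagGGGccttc
No other collagen probe held such a codon at every step of 9 bases along its whole length. Shorter runs within a probe were not searched for.

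All levels are given as log2 of the processed signal minus the 75th percentile of the same array, so that a value of 0 stands for the signal of this percentile. Levels of different genes come from different probes, and none is called higher or lower than another; ratios between chains are given further on only to compare their difference between the strains. Where the brightest probe of a marker list is named, it is the one with the highest mean level over the 8 arrays, which describes the signal of the probe and not the abundance of the RNA. The values of an array are listed in the order of mice 007, 003, 009 and 011 for NZO and 011, 010, 015 and 009 for B6. The 75th percentile ranged from 118.7 to 141.9 intensity units in NZO and from 136.4 to 158.8 in B6, and 50.4 to 55.0% and 53.1 to 60.1% of the spots, respectively, were well above background.

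The tissue label was checked first. The hepatocyte markers Alb, Ttr, Apoa1, Cps1 and Tat were well above background on all 8 arrays, with a summed level between 11.6 and 11.9, and 0 of 5 passed the thresholds described below (log2 fold changes of 0.27 for Alb, SE 0.12, 0.15 for Ttr, SE 0.08, 0.0039 for Apoa1, -0.02 for Cps1 and -0.31 for Tat, SE 0.23). One array of each strain stood apart in genes of skeletal muscle. The log2 of the summed signal of Ckm, Acta1, Myh4 and Tnnt3 was 4.15 in NZO mouse 007 and 2.51 in B6 mouse 010, compared with -2.88, -2.64 and -1.73 in the other NZO mice and -0.063, 0.49 and -1.34 in the other B6 mice. Of these 4 genes 3 were tested and none was called, and the brightest probe was that of Myh4. Without mouse 007 the log2 fold changes were -2.36 for Acta1 and -3.24 for Myh4, and both were called lower in NZO. Both genes were above background on 3 NZO and 4 B6 arrays, so they could be tested only through B6, and nothing is read from these calls. The sizes also depend on signal at background in NZO mouse 003. Because mouse 007 stood apart in these genes, results that depend on it are given with and without it.

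Most of the classic liver collagens were detected. A gene was represented by its brightest probe, and 22 of the 44 genes were well above background on all 8 arrays. This group held 7 of 11 fibrillar genes, 5 of 6 basement membrane genes, 3 of 6 beaded filament genes, 4 of 9 fibril-associated genes, Col7a1, Col18a1 and Col13a1. A set of 8 genes were not well above background on any array, namely the cartilage collagens Col2a1, Col9a3, Col10a1 and Col11a1, the collagen VI relatives Col6a4 and Col6a6, and Col22a1 and Col28a1. Another 10 genes could not be tested, since no strain had all of its arrays above background. Of these, Col9a1 was above background on 3 NZO and 3 B6 arrays, Col25a1 on 2 and 2, Col23a1 on 3 and 1, Col24a1 on 1 and 2, and Col17a1 on 1 and 0. Col4a3, Col12a1 and Col19a1 were each above background on 1 B6 array only. The short-chain collagens of vessel walls and the cornea differed in detection: Col8a1 was above background on 2 B6 arrays and no NZO array, and Col8a2 on 3 NZO arrays and no B6 array. The measured means in NZO and B6 were -4.65 and -3.93 for Col8a1 and -3.85 and -4.98 for Col8a2. In both genes the brighter strain also had arrays at background, so that no fold is given. Where a bound is given further on, it compares the mean of the brighter strain with a floor for each array of the other. The floor was the lowest signal called above background or the signal of the probe itself, whichever was higher. It is not a strict limit of detection. Col8a2 in B6 mouse 015 read -3.76 and was not called, although the lowest called signal of that array was -4.01. The value of Col8a1 rests on B6 mouse 010 (-1.80), without which the B6 mean was -4.64, compared with -4.65 in NZO. The groups overlapped in both genes, and neither was tested.

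**Figure D1:**
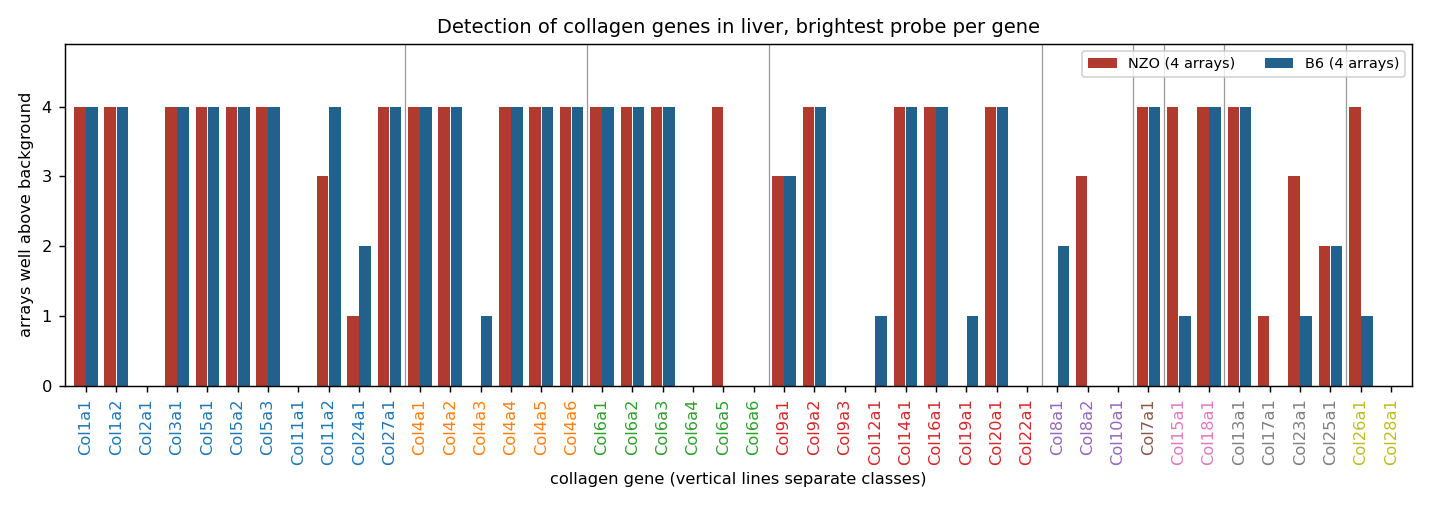
Number of arrays, of 4 per strain, on which the brightest probe of each of the 44 collagen genes was well above background, with NZO in red, B6 in blue and the classes separated by vertical lines. Most genes reach 4 arrays in both strains or few arrays in either, while Col6a5, Col15a1 and Col26a1 reach 4 in NZO and 0 or 1 in B6.

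NZO and B6 liver were compared with limma over all 20156 genes with every array of 1 strain or both well above background, which included 26 collagen genes. The study set its thresholds at a p-value of at most 0.05 and a log2 fold change of at least 0.7 in either direction. They were applied here to the unadjusted p-value. By this rule 9 of 26 collagen genes (34.6%) were called, compared with 11.9% of all genes tested. Of these, 5 of 26 collagen genes (19.2%) were higher in NZO, compared with 5.23% of all genes tested, and 4 of 26 (15.4%) were lower, compared with 6.62%. The higher genes were Col6a5, Col26a1, Col5a2, Col15a1 and Col27a1, and the lower genes were Col5a3, Col16a1, Col6a1 and Col3a1. Col6a5, Col26a1 and Col15a1 entered the test only through NZO, as B6 was above background on 0, 1 and 1 arrays. They could thus be tested only by being brighter there, and nothing is read from their p-values or from a share that includes them. Among the 22 genes above background on all arrays, 2 were higher (Col5a2 and Col27a1, 9.09%, compared with 4.53% of all such genes) and the same 4 were lower (18.2%, compared with 4.77%). With a Benjamini-Hochberg adjusted p-value in place of the unadjusted one, 3 genes stayed higher (11.5%, compared with 4.44% of all genes), since Col15a1 and Col27a1 were lost. The 3 were Col5a2 and, tested only through NZO, Col6a5 and Col26a1, so that nothing is read from this share. The 4 lower genes stayed lower (15.4%, compared with 5.02%), and 9.46% of all genes were called in either direction.

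Among the 22 genes above background on all arrays, 14 had a negative log2 fold change (63.6%), compared with 44.6% of the 18194 genes measured on all arrays, and the median was -0.37, compared with 0.04. In 8 of these 22 genes all NZO arrays lay below all B6 arrays (36.4%, compared with 9.5% of all such genes), and in 2, Col4a5 and Col5a2, all NZO arrays lay above (9.09%, compared with 12.1%). Over all 26 tested genes, with the 4 that were not above background on every array, 14 were negative (53.8%, compared with 46.7% of all genes tested), the median was -0.33, compared with 0.03, and the strains were separate with NZO below in 8 (30.8%, compared with 10.5%) and above in 4 (15.4%, compared with 11.9%). The median depends on the filter: without any filter on dim probes it was 0.11 over all 44 collagen genes, compared with 0.09 over all 34836 genes. As liver was measured as a whole, fewer cells of a type and less RNA per cell cannot be told apart for any of these differences.

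**Figure D2:**
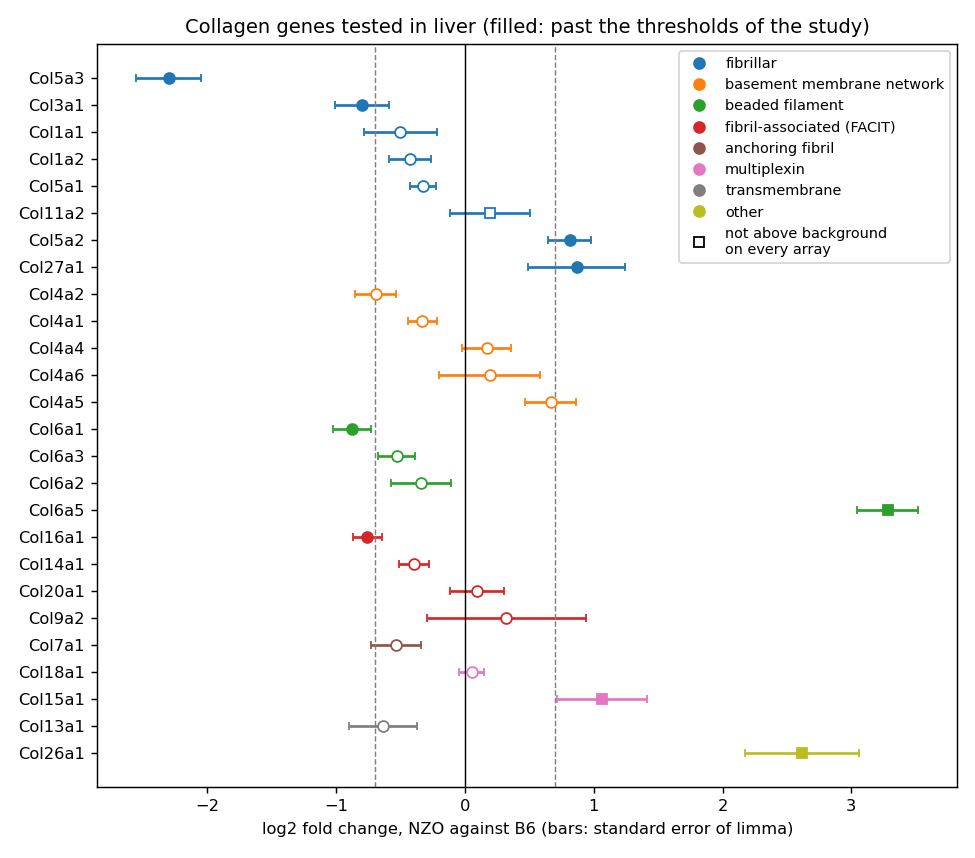
Log2 fold change of NZO against B6 for the 26 tested collagen genes with the standard error of limma as bars, ordered and coloured by class. Filled points passed the thresholds of the study, dashed lines mark the fold limit of 0.7, and squares mark genes that were not above background on every array, whose position depends on signal at background. Col5a3 lies farthest to the left at -2.30, and both directions occur within the fibrillar and the beaded filament class.

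Among the fibrillar collagens, 2 of 8 tested genes were higher, 2 were lower, and the median was -0.38. Col5a3, a chain of the minor fibrillar collagen V that regulates the width of fibrils, had the most negative log2 fold change of the 26 tested genes. Its probe (mm9 chr9:20574592-20574651) read 0.36, 0.53, 0.37 and 1.496 in NZO and 2.83, 3.06, 3.12 and 2.94 in B6. The groups were far apart, and NZO mouse 011 lay above the other NZO mice. Col5a3 was 4.93-fold lower in NZO (log2 fold change -2.30, SE 0.25, adjusted p = 0.000558). The decreases of Col5a3, Col3a1 and Col6a1 each rest on 1 probe, and sequence differences of NZO within the probes were not analysed. Col3a1, the chain of collagen III in reticular fibres, read 2.23, 2.25, 2.10 and 1.46 in NZO and 2.72, 2.69, 3.19 and 2.62 in B6 (mm9 chr1:45405589-45405648). All NZO mice were below all B6 mice, with mouse 011 as the lowest, and the difference was -0.80 (SE 0.21, adjusted p = 0.0366). Without NZO mouse 011 the log2 fold change of Col3a1 was -0.62 and without B6 mouse 015 it was -0.67, both short of the fold limit.

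The chains of collagen I, the main fibre protein of scar tissue, did not pass the thresholds. Col1a1 read 1.33, 0.57, 0.49 and -0.0014 in NZO and 1.04, 0.72, 1.52 and 1.11 in B6, where mouse 007 lay within the range of B6 and the other NZO mice below it (-0.50, SE 0.28, adjusted p = 0.295). Without mouse 007 the log2 fold change of Col1a1 was -0.75 and passed both thresholds (unadjusted p = 0.0111 with limma). Col1a2 read 3.32, 3.15, 2.91 and 2.57 in NZO and 3.42, 3.31, 3.49 and 3.45 in B6, again with an overlap through mouse 007 (-0.43, SE 0.16, adjusted p = 0.123). The partner chain of collagen V, Col5a1, which is required for fibril assembly, read -0.62, -0.78, -0.64 and -0.94 in NZO and -0.36, -0.42, -0.38 and -0.52 in B6. Its groups were separate, but the difference was small (-0.33, SE 0.10, adjusted p = 0.0703).

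Col5a2 and Col27a1 were higher in NZO. Col5a2, the other common chain of collagen V, was dim in both strains, with -3.00, -3.26, -3.14 and -2.94 in NZO and -4.14, -3.64, -3.61 and -4.19 in B6 (mm9 chr1:45431204-45431263), and all NZO mice lay above all B6 mice (0.81, SE 0.17, adjusted p = 0.0128). The log2 fold change of Col5a2 was 0.27 with the deposited table and 0.29 with normexp background correction, and the call was lost with both. In RefSeq (GRCm38.p6) Col5a2 and Col3a1 are direct neighbours on chromosome 1, and their differences had opposite signs. Col27a1, a fibrillar collagen of cartilage, read 0.14, 0.49, 0.85 and 1.66 in NZO and -0.35, 0.49, -0.73 and 0.27 in B6. The strains overlapped, the unadjusted p-value of 0.0490 was just below the threshold (log2 fold change 0.87, SE 0.37, adjusted p = 0.175), and the call was lost without NZO mouse 003 (0.96), 009 (0.85) or 011 (0.57) and without B6 mouse 011 (0.78) or 015 (0.65). The last tested fibrillar gene, Col11a2, was above background on 3 NZO arrays and had a log2 fold change of 0.19 (SE 0.31, adjusted p = 0.726).

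**Figure D3:**
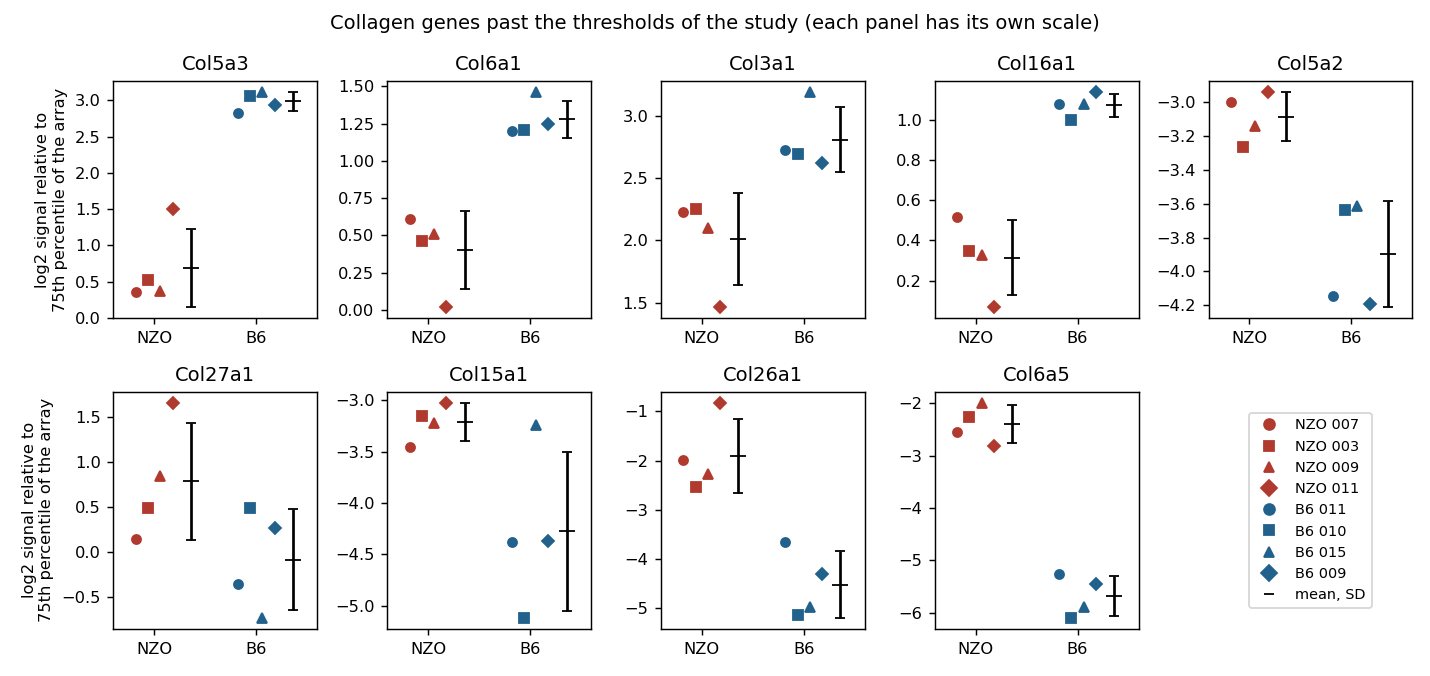
Level of the 9 collagen genes past the thresholds in every mouse, as log2 signal relative to the 75th percentile of the array, with mean and SD per strain (n = 4) and a separate scale in each panel. The strains do not overlap for Col5a3, Col6a1, Col3a1, Col16a1, Col5a2, Col26a1 and Col6a5, and they overlap for Col27a1 and Col15a1.

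None of the basement membrane collagens passed both thresholds, and the median of the 5 tested genes was 0.17, or -0.10 without NZO mouse 007. Col4a1 and Col4a2, the ubiquitous chains of collagen IV that share a promoter region, both had negative values. Col4a1 read 1.16, 1.29, 1.00 and 0.88 in NZO and 1.42, 1.49, 1.48 and 1.26 in B6, with a slight overlap (-0.33, SE 0.12, adjusted p = 0.0993). Col4a2 read 1.17, 1.37, 1.02 and 0.85 in NZO and 1.80, 1.78, 2.09 and 1.51 in B6. All NZO mice were below all B6 mice, and the log2 fold change of -0.69 (SE 0.16, adjusted p = 0.0202) was just short of the limit of 0.7. Without NZO mouse 007, NZO mouse 003 or B6 mouse 009 it was -0.72, -0.78 and -0.79, and Col4a2 was called. It was also called with quantile normalization (-0.71), with the 75th percentile over bright probes (-0.74) and with the deposited table (-0.85). Col4a5, a chain of the kidney filter that is encoded on the X chromosome, gave a positive value without overlap (0.67, SE 0.20, adjusted p = 0.0598). It was called higher without NZO mouse 007 (0.71), NZO mouse 011 (0.82) or B6 mouse 011 (0.73). Col4a4 and Col4a6 had log2 fold changes of 0.17 (SE 0.19) and 0.19 (SE 0.39) with overlap of the strains.

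The beaded filament collagens contained 1 gene called higher, Col6a5, and 1 called lower, Col6a1. Col6a1, an obligatory chain of collagen VI microfibrils around cells, read 0.61, 0.46, 0.51 and 0.02 in NZO and 1.20, 1.21, 1.46 and 1.25 in B6 (mm9 chr10:76171538-76171597). The strains were separate, and Col6a1 was 1.84-fold lower in NZO (-0.88, SE 0.14, adjusted p = 0.0047). Its partner Col6a3 read 0.16, 0.13, 0.52 and -0.15 in NZO and 0.56, 0.72, 0.80 and 0.71 in B6, without overlap but short of the fold limit (-0.53, SE 0.15, adjusted p = 0.0453). The other partner, Col6a2, read -1.14, -1.43, -2.07 and -1.65 in NZO and -1.70, -1.22, -0.88 and -1.12 in B6, with broad overlap (-0.34, SE 0.23, adjusted p = 0.390). A second Col6a2 probe (mm9 chr10:76060580-76060639) was above background on 3 B6 arrays and no NZO array, with overlap and with means too close to background for a fold.

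Col6a5 is an alternative chain that can take the place of Col6a3 in collagen VI. Its brightest probe (mm9 chr9, with the first base at 105765145 and the last at 105766504 in the design) read -2.54, -2.25, -1.98 and -2.81 in NZO and -5.27, -6.10, -5.90 and -5.45 in B6. It was well above background on all NZO arrays and on no B6 array, so that B6 gives only a bound. With the floor described above, this bound was a 3.64-fold higher signal of Col6a5 in NZO (means -2.40 and -5.68). It applies to the processed signal with this floor only. The log2 fold change was smaller than this bound in 2 alternatives, with 0.72 for the deposited table and 0.57, below the fold limit, for normexp background correction. A second Col6a5 probe, on another part of the gene (mm9 chr9:105830400-105830459), was not above background on any of the 8 arrays, and the increase therefore rests on 1 probe.

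Of the fibril-associated collagens, Col16a1, which connects fibrils with cells, was lower in NZO. It read 0.52, 0.35, 0.33 and 0.07 in NZO and 1.08, 1.00, 1.08 and 1.14 in B6 (mm9 chr4:129776333-129776392), without overlap (-0.76, SE 0.11, adjusted p = 0.00259). Without NZO mouse 011 the log2 fold change was -0.67 and missed the fold limit. The call of Col16a1 was also lost with normexp background correction and with the mean over its probes. A second probe of Col16a1 close by (mm9 chr4:129776460-129776519) gave -0.33 with overlap, so the size of the decrease depends on the probe. Col14a1, which coats collagen I fibrils, read 2.39, 2.53, 2.34 and 2.08 in NZO and 2.77, 2.76, 2.77 and 2.63 in B6. Its groups were separate by a small distance (-0.40, SE 0.11, adjusted p = 0.0526), and its second probe gave -0.25 with overlap. Col20a1 and Col9a2 had log2 fold changes of 0.10 (SE 0.21) and 0.32 (SE 0.62), both with overlap.

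Col18a1, the multiplexin of vascular and epithelial basement membranes, was bright and nearly constant, with 7.11, 7.14, 7.22 and 7.13 in NZO and 7.08, 7.01, 7.31 and 6.996 in B6 (0.05, SE 0.10, adjusted p = 0.773). The sign of this small value changed with the normalization. The related Col15a1, which is found in basement membranes of vessels and muscle, read -3.45, -3.15, -3.22 and -3.02 in NZO and -4.38, -5.12, -3.24 and -4.37 in B6. The probe shown above was above background on all NZO arrays and on 1 B6 array, mouse 015, which lay within the NZO range. The log2 fold change was 1.07 (SE 0.35), which passed the thresholds with the unadjusted limma p-value of 0.0156 but not with the adjusted one of 0.0833. Its size depends on signal at background in 3 B6 arrays, and the log2 fold change of Col15a1 was 0.24 with the deposited table and 0.29 with normexp background correction, neither of which was called. The other 2 probes of Col15a1, which overlap each other, were not above background on any array.

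Col26a1, a short collagen first described in testis and ovary, read -1.98, -2.52, -2.27 and -0.82 in NZO and -3.64, -5.14, -4.96 and -4.31 in B6, with B6 above background on 1 array (log2 fold change 2.62). A second probe, shifted by 5 bases against the first (mm9 chr5:137217634-137217693 and chr5:137217629-137217688), gave nearly the same values in NZO (mean -1.88, compared with -1.90) but was at background on all B6 arrays. Both probes thus placed all NZO mice above all B6 mice, but the size was not settled. With the same floor on the processed signal, the bound of the second probe was a 5.2-fold higher signal in NZO (means -1.88 and -6.32). The log2 fold change of the first probe was only 0.88 with the deposited table and 0.69, short of the fold limit, with normexp background correction. Col7a1, the collagen of anchoring fibrils of skin, and Col13a1, a collagen of the cell membrane, did not pass the thresholds (log2 fold changes -0.54, SE 0.20, and -0.64, SE 0.26, with overlap in both). Col13a1 was called lower without NZO mouse 003 (-0.86), B6 mouse 009 (-0.72) or B6 mouse 015 (-0.75).

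Collagen chains assemble in fixed combinations, so the log2 ratio of chains that can share a trimer was computed within each array. The difference of such a ratio between the strains shows unequal change, and it was not tested. The ratio Col5a1/Col5a3 was -1.43 ± 0.69 in NZO and -3.41 ± 0.14 in B6 (mean ± SD, n = 4), a difference of 1.98 without overlap. Col5a2/Col5a1 differed by 1.14, also without overlap. On the processed signal, the 3 chains of collagen V therefore differed between the strains by unequal amounts. The part of Col5a2 in this rests on a dim probe. Its log2 fold change was 0.27 with the deposited table and 0.36 with slide as a fixed term. In contrast, Col1a1/Col1a2 was -2.39 ± 0.28 in NZO and -2.32 ± 0.26 in B6, and the strains overlapped. Col4a1/Col4a2 differed by 0.36 and Col6a1/Col6a3 by -0.35, both without overlap, and Col6a1/Col6a2 by -0.54 with overlap.

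The sequence before the transcription start was inspected for the 4 genes that were lower in NZO. RefSeq (GRCm38.p6) promoter windows were matched for 35 of the 44 collagen genes. The sequences are shown 5′ to 3′ in the direction of the gene, up to the base before the annotated gene, and capitals mark the motifs searched. These were the CCAAT box, whose letters on the other strand are ATTGG, the GC box with the letters GGGCGG, which appear on the other strand as CCGCCC, and the TATA box with the letters TATAAA, which appear on the other strand as TTTATA. They are Col3a1 at chr1:45311288-45311537 on the plus strand, Col16a1 at chr4:130047590-130047816 on the plus strand, Col5a3 at chr9:20815118-20815317 on the minus strand and Col6a1 at chr10:76726045-76726294 on the minus strand.
Col3a1: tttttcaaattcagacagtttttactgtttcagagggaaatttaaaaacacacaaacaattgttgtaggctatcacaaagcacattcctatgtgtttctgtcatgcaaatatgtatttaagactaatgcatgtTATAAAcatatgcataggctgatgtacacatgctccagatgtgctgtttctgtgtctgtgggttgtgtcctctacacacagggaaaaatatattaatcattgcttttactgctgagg
Col16a1: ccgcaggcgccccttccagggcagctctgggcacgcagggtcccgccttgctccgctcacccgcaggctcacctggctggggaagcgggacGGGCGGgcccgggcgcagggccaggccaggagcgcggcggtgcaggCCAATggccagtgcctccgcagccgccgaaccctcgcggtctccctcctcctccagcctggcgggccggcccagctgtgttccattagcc
Col5a3: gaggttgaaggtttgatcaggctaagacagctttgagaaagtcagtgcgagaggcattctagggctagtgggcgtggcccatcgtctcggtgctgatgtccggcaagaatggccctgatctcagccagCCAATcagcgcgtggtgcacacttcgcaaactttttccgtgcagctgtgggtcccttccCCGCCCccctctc
Col6a1: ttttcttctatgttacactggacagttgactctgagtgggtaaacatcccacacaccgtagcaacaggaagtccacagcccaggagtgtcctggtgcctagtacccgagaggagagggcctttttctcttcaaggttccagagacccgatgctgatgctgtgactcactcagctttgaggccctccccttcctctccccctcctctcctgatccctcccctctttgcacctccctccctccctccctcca
No motif occurred in all 4 windows. Col3a1 holds 1 TATAAA, Col16a1 and Col5a3 hold 1 CCAAT box and 1 GC box each, and Col6a1 holds none of the motifs searched. Within 250 bases before the start, on both strands, 13 of 35 collagen genes (37.1%) held CCAAT, compared with 33.8% of all 32851 windows, 21 (60%) held the GC box, compared with 32.7%, and 5 (14.3%) held TATAAA, compared with 12.4%. The shares differ in unit, as the 35 collagen genes had 38 windows and a gene with several windows could match in any of them. A match is a description of the letters and not of a bound site.

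The mice of the NZO group differed among each other. For each array the median difference from the B6 mean was taken over the tested genes of a class. For the 8 fibrillar genes it was 0.06 in mouse 007, -0.45 in mouse 003, -0.36 in mouse 009 and -0.68 in mouse 011. For the interstitial genes Col1a1, Col1a2 and Col3a1 it was -0.10, -0.53, -0.61 and -1.10. In both sets mouse 007 was closest to B6 and mouse 011 farthest from it, but the order differed between classes. In the order of mice 007, 003, 009 and 011 the median was -0.22, -0.38, -0.47 and -0.64 for the 4 beaded filament genes, -0.0058, -0.59, -0.43 and -0.16 for the 4 fibril-associated genes, 0.40, 0.23, -0.41 and -0.21 for the 5 basement membrane genes and 0.05, -0.23, -0.37 and -0.31 for all 26 genes. Mouse 007 was also the array with the high skeletal muscle markers, whose part in the collagen values was not tested. Without mouse 007, 6 collagen genes were higher and 6 were lower, as Col4a5 joined the former and Col1a1 and Col4a2 the latter, while the counts over all genes moved from 1055 to 1101 higher and from 1334 to 1497 lower. Without mouse 011, 5 were higher and 2 were lower, namely Col5a3 and Col6a1, compared with 1042 and 1392 of all genes.

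**Figure D4:**
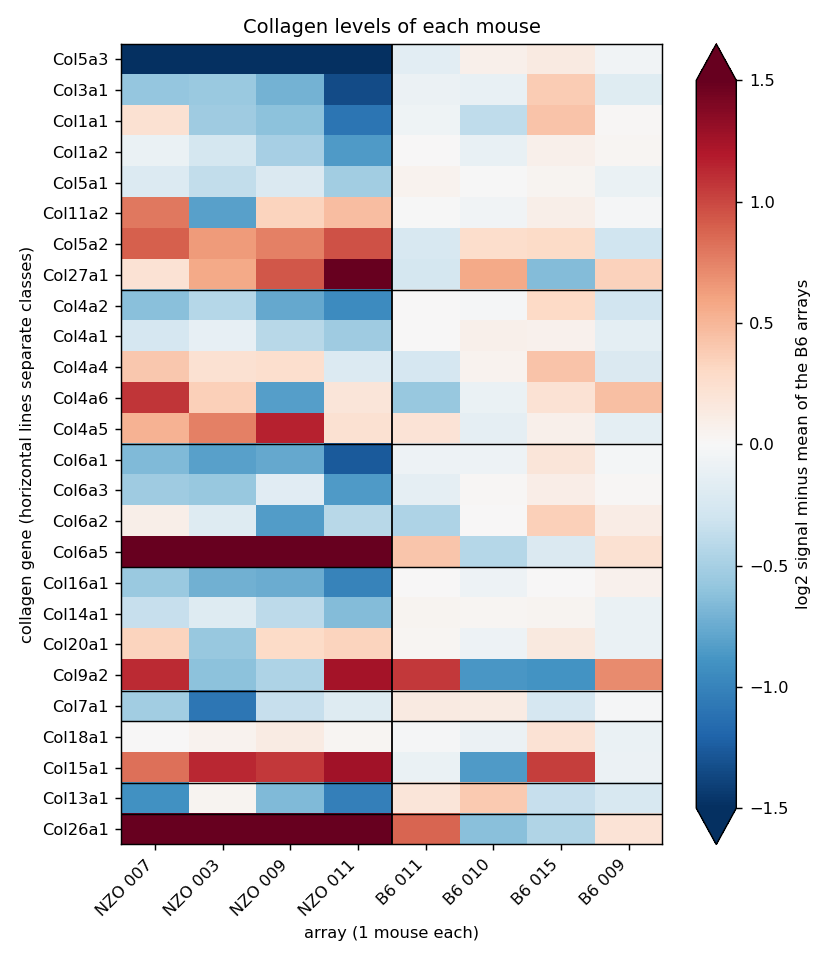
Difference of each array from the mean of the B6 arrays for the 26 tested collagen genes, on the log2 scale (colours saturate at -1.5 and 1.5), with 1 column per mouse and horizontal lines between classes. Rows such as Col5a3 and Col6a1 are blue in all 4 NZO mice, with Col5a3 at or near the end of the colour scale and therefore without visible differences between mice, whereas Col1a1 is close to B6 in mouse 007 and lowest in mouse 011.

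The arrays were scanned on 2 days and lay on 5 slides. Day 1 held 3 NZO and 2 B6 arrays, day 2 held 1 NZO array (mouse 007) and 2 B6 arrays, and slide 1 held 1 NZO and 2 B6 arrays, while the other slides held 1 strain only. Slide 1 lay within day 1 and held both of its B6 arrays, so that day 1 and slide 1 are not separate checks. Within day 1, day 2 and slide 1 the log2 fold changes were -2.29, -2.52 and -2.56 for Col5a3, -1.01, -0.44 and -0.69 for Col3a1, -1.004, -0.61 and -0.87 for Col6a1, and -0.79, -0.59 and -0.69 for Col16a1. For the higher genes they were 0.51, 1.17 and 0.36 for Col5a2, 1.12, 0.18 and 0.61 for Col27a1, 1.05, 0.92 and 1.03 for Col15a1 and 3.18, 1.995 and 2.53 for Col26a1, the last 2 against B6 arrays that were mostly at background. Col6a5 is left out, as all its B6 arrays were. Of the 26 tested collagen genes 18 kept their sign in each of these batches, and 8 did not, namely Col1a1, Col4a4, Col4a6, Col6a2, Col11a2, Col13a1, Col18a1 and Col20a1. The share of all genes tested that kept their sign was not computed. As each batch is a part of the same 8 arrays, nothing is read from this count. The 18 include the 9 called genes, whose calls rest on the same arrays, so nothing is read from their signs either. Moreover, Col6a5, Col26a1 and Col15a1 could be tested only by being brighter in NZO. Col1a1 and Col6a2, for example, read -0.77 and -0.66 within day 1 and 0.26 and 0.27 within day 2. With scan day as a term in limma, the log2 fold changes were -2.38 for Col5a3, -0.86 for Col6a1, -0.80 for Col3a1 and -0.72 for Col16a1, Col4a2 was called as well (-0.73), and Col27a1 was no longer called (0.79). With slide as a fixed term the calls of Col3a1 (-0.69), Col16a1 (-0.69), Col5a2 (0.36), Col15a1 (1.03) and Col27a1 (0.61) were lost, while Col7a1 (-1.02) and Col11a2 (-0.83) were called lower. As no other slide held both strains, this fit compares NZO mouse 003 alone with B6 mice 010 and 015, with the spread taken from slides 1 and 2, the only slides with more than 1 array, and Col11a2 was not above background in mouse 003.

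Genes that act on collagen chains were read in lists by their role. Over all genes tested 5.23% were higher and 6.62% were lower. Colgalt2 was tested only through NZO and Loxl4 and Ddr1 only through B6, and so were the markers Krt7, Wt1 and Itgax further on. They could thus be tested only by being brighter in 1 strain, and nothing is read from their p-values or from counts that include them. Among enzymes and chaperones that modify new chains, 2 of 17 tested genes were lower and 1 was higher. P4ha2, a subunit of the prolyl hydroxylase that stabilizes the helix, read -0.88, -0.86, -1.04 and -0.55 in NZO and 0.66, 0.32, 0.47 and 0.45 in B6 (-1.31, SE 0.13, adjusted p = 0.000315). Serpinh1, the collagen chaperone of the endoplasmic reticulum, had a log2 fold change of -0.84 (SE 0.11, adjusted p = 0.00128). Both were lower in all NZO mice than in any B6 mouse. Colgalt2, which adds galactose to hydroxylysine, was higher in NZO with -1.06, -0.59, -0.56 and -1.10, compared with -4.14, -3.60, -5.22 and -4.38 in B6, where it was above background on 2 arrays (log2 fold change 3.51). The size depends on signal at background in the other 2 B6 arrays, and the log2 fold change of Colgalt2 was 1.61 with the deposited table and 1.21 with normexp background correction.

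Maturation of fibrils involves cleavage of propeptides and cross-linking. In the group of cleavage enzymes and their enhancers, 2 of 6 tested genes were lower and none was higher, namely the enhancer Pcolce2 (-1.18, SE 0.14, adjusted p = 0.000767) and the N-propeptidase Adamts2 (-0.71, SE 0.15, adjusted p = 0.0152). Bmp1, the C-propeptidase and the brightest probe of this list, was above B6 in all NZO mice but short of the fold limit (0.46, SE 0.09, adjusted p = 0.01), and the summed level of the list was 6.26, 6.24, 6.20 and 6.37 in NZO and 6.01, 5.96, 6.10 and 6.05 in B6, without overlap. Of 4 tested lysyl oxidases, which cross-link chains, 2 were lower and none higher. Loxl4 read -4.71, -3.79, -3.48 and -5.74 in NZO, where 1 array was above background, and -0.29, 0.98, -1.59 and 0.75 in B6 (log2 fold change -4.39). This size depends on signal at background in the other 3 NZO arrays. Loxl3 had a log2 fold change of -0.83 (SE 0.21, adjusted p = 0.0355). The best known member, Lox, was above background on 1 NZO array only and was not tested.

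Single genes of turnover, of receptors and of fibril partners were lower as well. Among 8 tested genes of degradation and its inhibitors, 2 were lower and none higher, namely the membrane-bound collagenase Mmp14 (-0.73, SE 0.11, adjusted p = 0.0026) and the fibroblast protease Fap (-0.87, SE 0.29, adjusted p = 0.0881). Of 7 tested receptors 3 were lower and none higher, which were the discoidin domain receptors Ddr2 (-1.39, SE 0.13, adjusted p = 0.00027) and Ddr1 (-1.01, above background on 2 NZO arrays) and the integrin chain Itga10 (-1.27, SE 0.24, adjusted p = 0.00866). Ddr2, a receptor for fibrillar collagen, read -1.73, -1.41, -1.58 and -1.81 in NZO and -0.19, -0.07, -0.51 and -0.23 in B6, without overlap. Of 5 tested fibril-binding proteoglycans 1 was lower, the small leucine-rich proteoglycan Lum (-0.71, SE 0.13, adjusted p = 0.00891), and none was higher. Of 12 tested growth factors and mediators that act on collagen genes, Tgfbr2, a receptor of TGF-beta, was lower (-0.90, SE 0.15, adjusted p = 0.00572) and none was higher, while Tgfb1 itself had a log2 fold change of -0.35 (SE 0.15, adjusted p = 0.185). The medians of these lists lay between -0.71 for cross-linking and -0.05 for modifying enzymes, with -0.51 for propeptide cleavage, -0.61 for receptors, -0.45 for degradation, -0.37 for proteoglycans and -0.26 for growth factors, compared with 0.03 over all genes. Among all genes above background on all arrays 4.53% were higher and 4.77% were lower. Among list members of this kind, none was higher, and 2 of 16 modifying enzymes, 2 of 6 cleavage genes, 1 of 3 lysyl oxidases, 2 of 7 genes of degradation, 2 of 6 receptors, 1 of 5 proteoglycans and 1 of 12 growth factors were lower. The medians over these members were -0.08 for modifying enzymes, -0.59 for cross-linking and -0.52 for receptors, compared with 0.04 over all genes above background on all arrays. Several of these calls lay close to the fold limit and were lost without 1 mouse. This held for Adamts2 without NZO mouse 009 or 011 or B6 mouse 009 or 011 (-0.59 to -0.68), for Lum without NZO mouse 007 or 011 or B6 mouse 009, 010 or 011 (-0.63 to -0.69), for Mmp14 without NZO mouse 009 (-0.68) or B6 mouse 010 (-0.66), and for Fap without NZO mouse 003 (-0.68). Of the 20 genes of these lists and of the marker lists below that were called and named, 6 stayed called with normexp background correction (Colgalt2, P4ha2, Adamts2, Loxl4, Ddr2 and Tgfbr2), 14 with the deposited table, 10 with slide as a fixed term and 19 with scan day as a term. The calls of Loxl3, Fap, Ddr1, Thy1, Krt7 and Wt1 were lost with the deposited table. Those of Adamts2, Loxl4, Loxl3, Mmp14, Ddr1, Lum, Tgfbr2, Thy1, Krt7 and Wt1 were lost with slide, and that of Adamts2 with scan day.

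**Figure D5:**
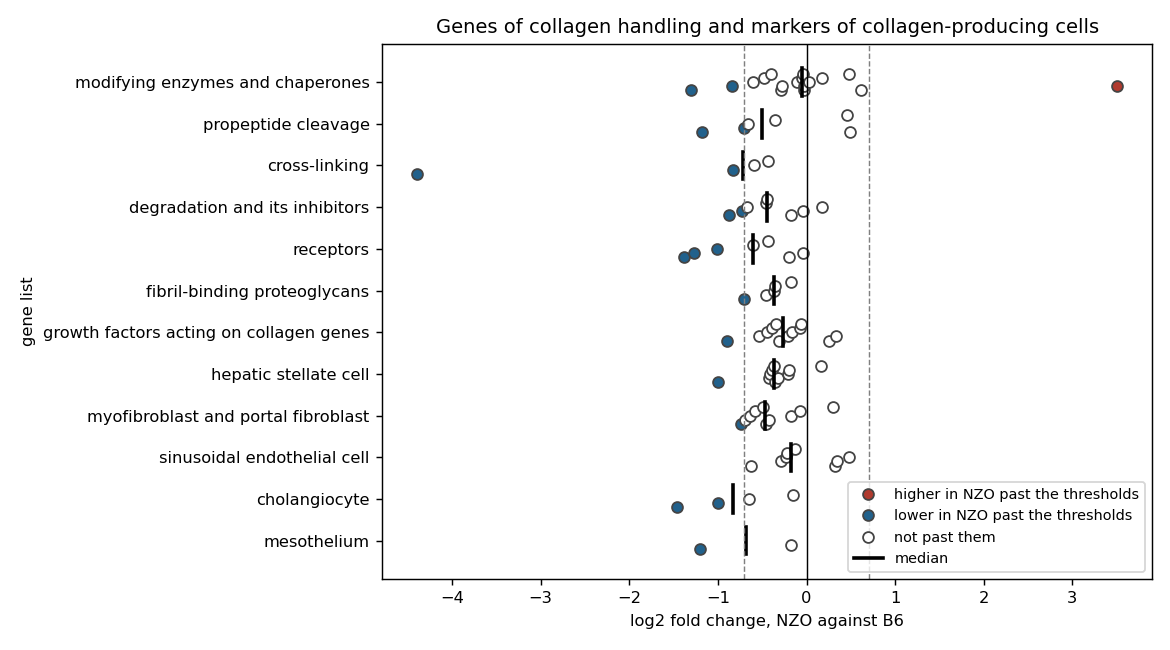
Log2 fold change of NZO against B6 for each tested gene of the lists of collagen handling and of cell types that make or border on collagen, with the median of a list as a vertical bar and the fold limit of 0.7 as dashed lines. The called genes lie on the left except for Colgalt2 at 3.51, a size that depends on signal at background in B6.

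Markers of collagen-producing cells were read beside the collagens. Of 10 markers of hepatic stellate cells, all tested, 1 was lower, Pdgfrb, the PDGF receptor of these cells (-0.996, SE 0.10, adjusted p = 0.00032), and the median was -0.36. Pdgfrb read -1.25, -1.36, -1.46 and -1.55 in NZO and -0.37, -0.40, -0.52 and -0.34 in B6. The summed level of the list was 6.20, 6.34, 5.93 and 6.05 in NZO and 6.49, 6.49, 6.30 and 6.45 in B6, so that only mouse 003 of NZO lay above a B6 mouse, and the brightest probe was that of Ecm1. The vitamin A enzyme Lrat, a defining marker, had a log2 fold change of -0.37 (SE 0.17, adjusted p = 0.207). Of 10 markers of myofibroblasts and portal fibroblasts, all tested, Thy1 was lower (-0.74, SE 0.17, adjusted p = 0.0222, but -0.59 and not called without NZO mouse 011 and -0.67 without B6 mouse 015), the median was -0.47, and the brightest probe was that of Gas6. Their summed level was 4.71, 4.72, 4.51 and 4.29 in NZO and 4.97, 4.89, 5.11 and 5.04 in B6, without overlap, with mouse 011 as the lowest. Acta2, the actin of myofibroblasts, had a log2 fold change of -0.18 (SE 0.16, adjusted p = 0.518). The part of these cells in the collagen differences was not tested.

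Sinusoidal endothelial markers did not pass the thresholds (0 of 8, median -0.18), with 0.48 for the scavenger receptor Stab2 (SE 0.09, adjusted p = 0.00754), which turned to -0.30 as the mean over its probes, and -0.63 for Lyve1 (SE 0.15, adjusted p = 0.0229), which was called without NZO mouse 003 (-0.74). Their summed level was 6.93, 7.04, 6.67 and 6.61 in NZO and 6.83, 6.75, 6.61 and 6.76 in B6, and the brightest probe was that of Clec4g. Of 4 tested cholangiocyte markers 2 were lower, Sox9 (-1.47, SE 0.28, adjusted p = 0.00879) and Krt7 (-1.0, above background on 2 NZO arrays, but -0.64 and not called without NZO mouse 011), and the median was -0.83, or -0.65 over the 3 above background on all arrays. The summed level of this list was 0.52, -0.38, -0.02 and -0.41 in NZO and 0.60, 0.57, 0.61 and 0.95 in B6, without overlap, the brightest probe was that of Krt19, and the part of bile ducts in the collagen differences was not tested. Of 2 tested mesothelial markers Wt1 was lower (log2 fold change -1.20). It was above background on 2 NZO arrays only, so the size depends on signal at background. Lrrn4 was not above background on any array. The brightest probe of the mesothelial list was that of Msln, and the summed level was -0.10, -0.26, 0.05 and -0.36 in NZO and -0.06, 0.12, 0.29 and 0.11 in B6.

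Other tissues that could adhere to a liver sample were looked at in the same way. Of 6 adipocyte markers, the defining genes Adipoq, Plin1 and Lep were not above background on any array, and 0 of the 3 tested genes passed (log2 fold changes of 0.47 for Car3, SE 0.09, adjusted p = 0.0116, 0.42 for Cidec, SE 0.21, and -0.30 for Fabp4, SE 0.15). The summed level of the adipocyte list was 9.24, 9.14, 9.33 and 9.17 in NZO and 8.69, 8.68, 8.73 and 8.91 in B6, without overlap, with Car3, which hepatocytes are also known to express, as the brightest probe, and its part in the collagen values was not tested. Of 6 markers of exocrine pancreas 4 were not above background on any array, and 0 of 2 tested genes passed (Ctrb1 0.37, SE 0.21, and Cela1 -0.53, SE 0.25). Of 5 leukocyte markers Itgax was lower (-2.04, above background on 2 NZO arrays), and the median was -0.42, or -0.05 over the 4 markers above background on all arrays. The summed level of the leukocyte list was 4.23, 3.44, 3.51 and 3.5 in NZO and 3.61, 3.44, 3.58 and 3.74 in B6, where mouse 007 was the highest.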

How the data were processed

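Liver RNA of 4 NZO and 4 B6 mice was analysed, and mice were grouped by the titles of the labels, with 1 array and 1 mouse number per title. The p-values measure the spread between these samples. The number of arrays limits the precision. According to the file headers, the authors extracted the intensity values of each scanned array with Agilent Feature Extraction 11.0.1.1, whereas the submitters' processing notes name version 9.1. The deposited processed signal is an intensity after background subtraction and is not scaled between arrays. The authors also deposited a table of intensity values for all arrays, which equalled the raw median signal for 59305 of 59305 spots on each array (tolerance 0.01) and was used as an alternative only.

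Control spots were removed, as were 96 to 137 outlier spots on each array, no spot was saturated, and spots of a probe were averaged as log2 intensity minus the 75th percentile of the array. A probe was kept if every array of 1 strain or both was well above background (27639 of 55681). A gene was represented by its brightest probe. The probes follow the mouse reference sequence, and differences of NZO from it within probes were not analysed here. Strains were compared with limma 3.58.1 (lmFit and eBayes, R 4.3.3) without covariates over 20156 genes, with Benjamini-Hochberg adjustment over all of them. Genes were called at a p-value of at most 0.05 and a log2 fold change of at least 0.7 either way. These are the limits of the study, applied here to the unadjusted p-value. The fits were tested on simulated data.

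Values per mouse were given for all called collagens and those commonly described in liver (Col1a1, Col1a2, Col3a1, Col4a1, Col4a2, Col5a1, Col5a2, Col6a1, Col6a2, Col6a3, Col14a1, Col15a1, Col18a1). For the other tested collagens the log2 fold change was given. Of each other list, up to 4 called genes were named, and in some lists well-known members that were not called. Members, classes and lists were chosen with earlier results of these data known. All 44 symbols were found in the RefSeq gene table (GRCm38.p6), and for 63 of 69 probes the accession led to the same symbol. Alternatives covered background correction, scaling, filter, probe choice, slide, scan day, pairing, test and each mouse left out.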

Additional observations from a re-analysis of the deposited data

Results flagged for a closer look

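Within a strain, 1 mouse lay far from the other 3 in 10 of 116 sets of 4 values, judged by the gap to the nearest mouse as a share of the whole range (Dixon's test). Chance gives about 1 in 20 such sets. Among the collagens, Col5a3 was high in NZO mouse 011 (1.496), Col14a1 was low in B6 mouse 009 (2.63) and Col20a1 was low in NZO mouse 003 (-2.57). The high value of Col5a3 in mouse 011 stood on the side of B6, while the same mouse had the lowest Col1a1, Col1a2, Col3a1 and Col6a1. Among genes that act on collagens, Pcolce2 was low in NZO mouse 011 (-1.91), Mmp14 was high in B6 mouse 010 (-0.17) and Lum was low in B6 mouse 015 (1.70). Among the markers, Krt7 was low in NZO mouse 011 (-5.00), Acta1 of skeletal muscle was high in NZO mouse 007 (2.81), Ctrb1 of pancreas was low in B6 mouse 011 (-0.23) and Itgax of leukocytes was high in B6 mouse 015 (-1.18). The causes were not tested.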

How the results depend on the processing

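Col5a3 and Col6a1 were called lower in NZO under 23 of 23 alternatives, Col3a1 under 20, Col16a1 under 19 and Col5a2 was called higher under 20 of 23, whereas Col27a1 was called under 7. Not every alternative could change a call. Col5a3, Col6a1 and Col3a1 had 1 probe each, above background on all 8 arrays. For them, changes of filter and of probe choice left the log2 fold change as it was. Col6a5 and Col26a1 were called under 21 of 22 alternatives and Col15a1 under 17. These genes were tested only through NZO, and most alternatives reuse the same B6 signal at background, so nothing is read from their counts. With normexp background correction none of them was called. The 5 higher collagen genes became 0 with normexp background correction, 2 with the deposited table, 2 with slide as a fixed term, 2 with the demand that all 8 arrays be above background (fewer genes tested), 3 with the adjusted p-value and 3 with the methods' test that allows unequal variances; the methods' test gave 4 lower genes, and 2 higher and 3 lower after Benjamini-Hochberg adjustment, and over all genes 961 higher and 1108 lower, or 637 and 639 after adjustment. Leaving out 1 mouse at a time gave 4 to 6 higher and 2 to 6 lower collagen genes, 1018 to 1134 higher and 1240 to 1497 lower genes of all, and medians of -0.36 to -0.24 for collagens, -0.45 to -0.27 for fibrillar and -0.10 to 0.27 for basement membrane collagens; the lowest count of lower collagens, 2, was reached without NZO mouse 011. Of all genes, 1055 higher and 1334 lower became 504 and 471 with normexp, 467 were higher with the deposited table and 881 were lower when all 8 arrays had to be above background. The median of collagens was -0.084 with normexp and 0.11 without a filter, compared with 0.042 and 0.086 over all genes. That of fibrillar collagens was 0.055 without a filter. Signs turned for Col18a1 with quantile normalization (-0.0873), the deposited table (-0.15) and slide as a fixed term (-0.0137), for Col11a2 (-0.83), Col20a1 (-0.60), Col4a4 (-0.0059) and Col13a1 (0.020) with slide as a fixed term, for Col20a1 (-0.045), Col4a4 (-0.0094) and Col4a6 (-0.0014) with the deposited table, for Col9a2 (-0.495) and Col4a6 (-0.27) on the 4 arrays with a shared number, with and without the block, for Col11a2 (range -0.0069 to 0.53) and Col4a6 (-0.099 to 0.54) with 1 mouse left out, in both without NZO mouse 007, for Acta1 with normexp (0.23), for Ttr with the deposited table (-0.11) and for Stab2 with the mean over probes (-0.30). The deposited table moved the median of all genes to -0.15 and the fixed slide term to 0.10. Mouse numbers 009 and 011 occurred in both strains; deviations of the same-numbered arrays correlated with -0.26 and 0.0050, and the numbers name different mice. With the number as a replicate block on these 4 arrays, 4 collagens were higher and 6 lower, 1289 and 1719 of all genes, with a basement membrane median of -0.27; without the block the same 4 arrays, an alternative added after seeing the data, gave 5 and 7, 1300 and 1753 of all genes, and -0.27. Except where named, the cause was not tested. Signal over background limits Col6a5, Col26a1 and Col15a1, which were dim in B6.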
